A study of Mus musculus with 24 samples.

Results

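The tight junction genes followed here are 10 of the 22180 genes measured on the arrays: Cldn5, Cldn12, Ocln, Lsr, Marveld2, Marveld3, Tjp1, Cgn, Cgnl1 and Magi3. They were chosen by gene symbol in the annotation of the array, each from probe sets with exactly 1 symbol, and where a gene has several of them the brightest on average over the 24 arrays stands for it. All 10 were measured, with 11 probe sets, of which 2 belong to Lsr. Levels are on the log2 scale of the deposited values, so a difference of 1 is a doubling. Every group mean of the 10 was above 5.24, the 95th percentile of the ERCC control probe sets.

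The arrays hold RNA of cells sorted from mouse tissue, 8 arrays a group, labelled as biological replicates, and ask how vessel cells differ with the tissue around them. The Wnt group came from medulloblastomas, brain tumours of the hindbrain, of mice carrying Blbp-Cre together with a Ctnnb1 +/Exon3 flox allele, with Trp53 flox/flox and with Pik3ca +/flox, which the series text describes as mutant for Ctnnb1 and Pik3ca and lacking p53. The Shh group came from medulloblastomas of Ptch+/-; Ink4c-/- mice, and the hindbrain group from wild type adult hindbrain. All 3 groups had a mixed strain background, and the age of the tumour mice is not given in the sources used here. Blbp-Cre is driven by the promoter of a gene of radial glia and progenitors, so the Wnt alleles are recombined where it is active, while the Ptch and Ink4c alleles are carried by the vessel cells too. Hindbrain cells carry none of these alleles, and age, genotype and tumour cannot be told apart between the groups. Cells were freed with papain and taken with magnetic beads through Cd144, the product of Cdh5, and Cd105, the product of Eng, so these surface proteins of endothelium chose the cells.

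Endothelial cells of the brain are sealed to each other by tight junctions, which keep solutes of the blood from passing between cells and are part of the blood-brain barrier. Claudins and the MARVEL proteins occludin, tricellulin and Marveld3 span the membrane, and Lsr, an angulin, marks the points where 3 cells meet and recruits tricellulin there. Scaffold proteins under the membrane, among them ZO-1 and the cingulins, tie these strands to actin.

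In Wnt tumours 6 of the 10 genes were lower than in hindbrain, where 22.0% of all genes were called lower, and 1 was higher, where 23.2% were. Lsr, Ocln, Marveld2 and Cldn5 were 6.44-fold, 5.15-fold, 4.69-fold and 4.18-fold lower, Cgnl1 was 2.64-fold lower and Tjp1 1.37-fold lower, while Marveld3 was 1.88-fold higher. Cldn12, Cgn and Magi3 did not pass the test. In Shh tumours the falls were fewer and smaller: Marveld2 and Ocln were 1.81-fold and 1.68-fold lower, Marveld3 1.23-fold lower (18.9% of all genes were called lower there), and Cldn5 had a log2 difference of 0.019 ± 0.20 from hindbrain (SE). The tests are those of limma over all genes and arrays, with an adjusted p (Benjamini-Hochberg) under 0.05 as the threshold, and the number of arrays limits their precision. In such mixed RNA, fewer endothelial cells and less RNA of a gene in each cell cannot be told apart.

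The start-site regions of the 4 genes with the largest falls in Wnt tumours are shown because the largest changes in Wnt tumours were theirs, from 250 bases before to 50 after the first listed start, as RefSeq gives them on build GRCm38.p6. Capitals mark matches to a pair of motifs, searched on both strands. The first is GGAA, the core bound by ETS factors such as Erg, which reads TTCC on the opposite strand. The other is CTTTG, the core bound by the TCF/LEF partners of beta-catenin, whose opposite strand reads CAAAG. The core of SOX factors, ACAAT, was searched too, and its opposite strand reads ATTGT. The regions are Cldn5 at chr16:18776597-18776896 on the plus strand, Ocln at chr13:100552669-100552968, Lsr at chr7:30973420-30973719 and Marveld2 at chr13:100616922-100617221, the last 3 on the minus strand.
Cldn5: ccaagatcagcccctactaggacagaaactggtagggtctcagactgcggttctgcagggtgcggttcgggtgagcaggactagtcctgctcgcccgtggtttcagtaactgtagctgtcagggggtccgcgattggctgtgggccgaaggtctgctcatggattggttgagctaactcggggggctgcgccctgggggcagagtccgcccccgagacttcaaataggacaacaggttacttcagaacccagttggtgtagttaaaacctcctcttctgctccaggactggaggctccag
Ocln: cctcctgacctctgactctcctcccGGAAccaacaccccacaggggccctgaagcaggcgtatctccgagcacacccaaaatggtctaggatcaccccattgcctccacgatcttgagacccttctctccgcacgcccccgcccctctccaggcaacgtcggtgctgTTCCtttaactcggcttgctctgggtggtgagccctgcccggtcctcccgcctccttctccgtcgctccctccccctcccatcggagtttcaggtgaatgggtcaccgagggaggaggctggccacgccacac
Lsr: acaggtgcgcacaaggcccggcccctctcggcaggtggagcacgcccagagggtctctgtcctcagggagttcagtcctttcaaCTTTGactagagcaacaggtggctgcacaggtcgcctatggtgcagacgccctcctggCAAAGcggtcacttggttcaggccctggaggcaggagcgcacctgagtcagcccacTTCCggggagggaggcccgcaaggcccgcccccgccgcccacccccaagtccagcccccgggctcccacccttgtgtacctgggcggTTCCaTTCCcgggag
Marveld2: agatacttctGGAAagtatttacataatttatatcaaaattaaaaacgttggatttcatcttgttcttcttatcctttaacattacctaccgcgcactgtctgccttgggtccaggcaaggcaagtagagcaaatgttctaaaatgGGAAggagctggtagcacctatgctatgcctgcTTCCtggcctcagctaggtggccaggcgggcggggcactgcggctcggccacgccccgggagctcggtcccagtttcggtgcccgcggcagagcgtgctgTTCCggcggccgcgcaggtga
The Cldn5 region held no match to any of the 3 motifs. Ocln had 2, Lsr 3 and Marveld2 4 matches to GGAA, Lsr had 2 to CTTTG, and no matches overlapped each other. Of 32851 start-site regions of 300 bases, 96% hold GGAA, 31% ACAAT and 53.9% CTTTG. Among the 13 start sites listed for 9 of the 10 genes, none held ACAAT, and the matches are a description of these letters, not of binding. Ocln and Marveld2 are neighbouring protein-coding genes on chromosome 13 in the GRCm38.p6 gene table.

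Claudins seal the strand, and Cldn5 is the claudin that brain endothelium is best known for. Its level in Wnt arrays had a lowest value of 9.24, a median of 9.84 and a highest of 10.95. In Shh arrays the values were 11.70, 12.11 and 12.39, and in hindbrain arrays 11.69, 12.06 and 12.17. Every Wnt array lay under every array of the other groups, and the Shh and hindbrain arrays overlapped over most of their ranges. The log2 fold change was -2.06 ± 0.20 in Wnt against hindbrain (SE, limma adjusted p = 3.55e-09) and -2.08 ± 0.20 in Wnt against Shh (adjusted p = 6.73e-09). Shh against hindbrain gave 0.019 ± 0.20 (adjusted p = 0.951), with a 95% interval of -0.39 to 0.42. The fit shares 1 spread per gene among all groups, so this SE and interval also carry the spread of the Wnt arrays. The SD of Cldn5 was 0.66 in Wnt, 0.24 in Shh and 0.16 in hindbrain arrays. Cldn12, a claudin found in many tissues, averaged 7.79 ± 0.23 in Wnt, 7.87 ± 0.15 in Shh and 7.86 ± 0.13 in hindbrain arrays (SD, n = 8 each). Its groups overlapped, and its fold changes against hindbrain were -0.071 ± 0.089 in Wnt and 0.0026 ± 0.089 in Shh arrays (SE), neither past the test.

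**Figure D1:**
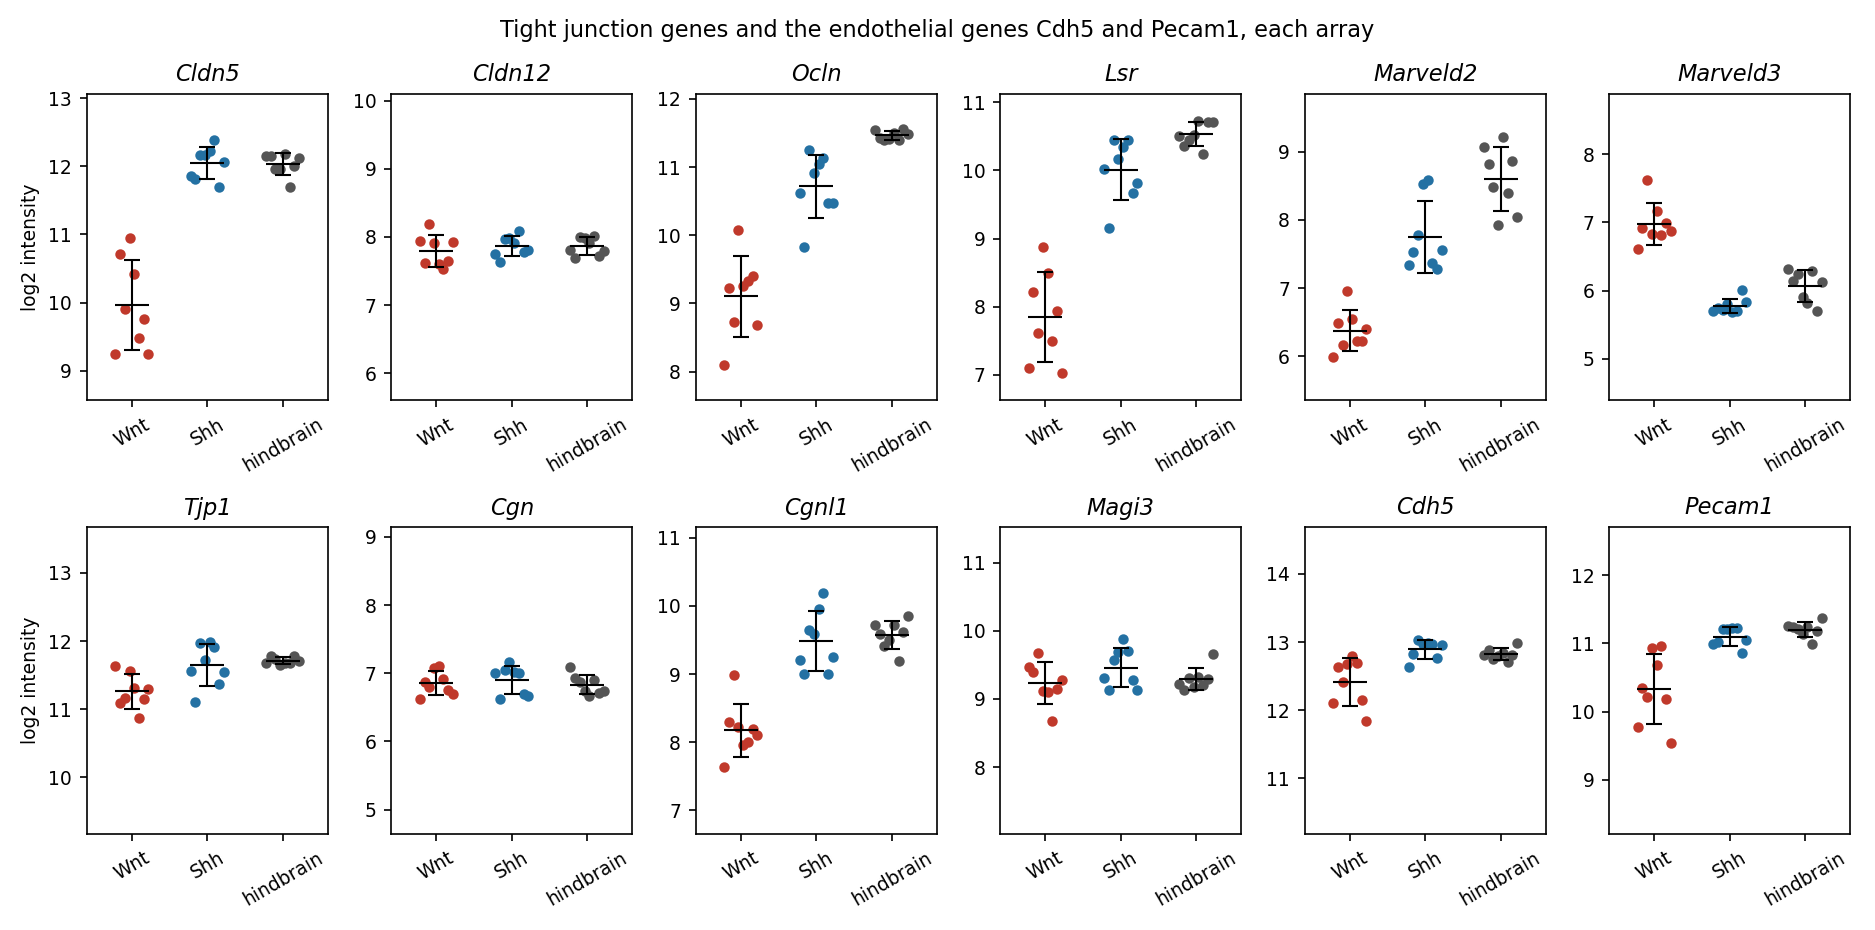
Deposited log2 level of each of the 10 genes on every array, with Wnt, Shh and hindbrain arrays in that order from left to right, 1 point an array and a line at the mean with a bar of 1 SD to each side (n = 8 a group); Cdh5 and Pecam1 close the second line of panels, every panel spans the same range of log2 units, and the vertical positions of different genes are not comparable. Cldn5, Ocln, Lsr, Marveld2, Tjp1 and Cgnl1 have all 8 Wnt points under all 8 hindbrain points, and Marveld3 has all 8 above.

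Occludin, encoded by Ocln, is a MARVEL protein of the strand that lies along the contact of 2 cells. Ocln in Wnt arrays had a lowest value of 8.10, a median of 9.24 and a highest of 10.08. In Shh arrays these were 9.83, 10.77 and 11.25, and in hindbrain arrays 11.40, 11.45 and 11.56. The hindbrain arrays were the tightest group and lay above all tumour arrays, while the highest Wnt array stood over the lowest Shh array. The fall was -2.36 ± 0.21 in Wnt (SE, adjusted p = 8.07e-10) and -0.75 ± 0.21 in Shh arrays against hindbrain (adjusted p = 0.00551). Wnt against Shh gave -1.61 ± 0.21 (adjusted p = 7.98e-07), so the 3 groups stood in the order Wnt, Shh, hindbrain with each step past the test.

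Tricellulin, encoded by Marveld2, is the MARVEL protein of the corners where 3 cells meet. Marveld2 ran from a lowest 5.99 over a median of 6.31 to a highest 6.96 in Wnt arrays. In Shh arrays it had 7.29, 7.54 and 8.59, and in hindbrain arrays 7.92, 8.65 and 9.22. All Wnt arrays lay under all others, and the 2 highest Shh arrays, 8.53 and 8.59, were inside the hindbrain range. The fall was -2.23 ± 0.21 in Wnt (SE, adjusted p = 2.71e-09) and -0.86 ± 0.21 in Shh arrays against hindbrain (adjusted p = 0.00203), and -1.37 ± 0.21 in Wnt against Shh (adjusted p = 9.53e-06).

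Lsr, the angulin that recruits tricellulin, had the largest fall of the 10 in Wnt arrays. Its values were 7.03 at the lowest, 7.77 at the median and 8.88 at the highest in Wnt arrays. In Shh arrays they were 9.16, 10.10 and 10.45, and in hindbrain arrays 10.24, 10.51 and 10.73. All Wnt arrays were under all others, and Shh and hindbrain arrays overlapped. The fold change was -2.69 ± 0.22 in Wnt against hindbrain (SE, adjusted p = 3.18e-10) and -2.17 ± 0.22 in Wnt against Shh (adjusted p = 2.75e-08). Shh against hindbrain gave -0.52 ± 0.22, which did not pass (adjusted p = 0.0668), but it passed, at the same -0.52, when these 2 groups were fitted alone (adjusted p = 0.0138). It passed also without Shh replicate 3 or 6 (-0.58 each) or Wnt replicate 4 (-0.52). The second, dimmer probe set of Lsr averaged 6.88 ± 0.23 in Wnt, 7.21 ± 0.15 in Shh and 7.68 ± 0.14 in hindbrain arrays (SD, n = 8 each). It fell too, but by less in Wnt arrays: by 0.80 in Wnt (adjusted p = 6.46e-08) and by 0.47 in Shh against hindbrain (adjusted p = 0.000201), and by 0.33 in Wnt against Shh (adjusted p = 0.00592).

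Marveld3, the third MARVEL protein, moved the other way in Wnt arrays, where it ran from 6.61 over a median of 6.89 to 7.62. In Shh arrays the lowest, median and highest values were 5.68, 5.73 and 6.01, and in hindbrain arrays 5.70, 6.13 and 6.31. Every Wnt array lay above every other array, and the Shh and hindbrain arrays overlapped. The rise was 0.91 ± 0.11 in Wnt against hindbrain (SE, adjusted p = 2.52e-07) and 1.20 ± 0.11 in Wnt against Shh (adjusted p = 6.19e-09). The Shh value against hindbrain, -0.29 ± 0.11 (adjusted p = 0.0425), lost its call when any 1 of 12 arrays was left out, namely hindbrain replicates 1, 2, 3, 6 and 8 and Shh replicates 1, 2, 3, 4, 5, 6 and 8, with values of -0.30 to -0.26. Of 7 epithelial markers, 2 rose in Wnt against hindbrain, Krt18 by 3.89 ± 0.28 and Krt8 by 0.45 ± 0.13, and 5 did not pass. The median change of the 7 was 0.14. Their mean level, in which Krt18 counts with the rest, was 6.22 to 6.78 in Wnt, 5.58 to 5.94 in Shh and 5.57 to 5.95 in hindbrain arrays. Of those 7, Epcam and Esrp1 were under the 95th percentile of the ERCC control probe sets, 5.24, in the mean of every group. The part of other cells in the level of Marveld3 was not tested.

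Under the membrane, Tjp1 encodes ZO-1, the scaffold that binds claudins and occludin. Tjp1 had a lowest, median and highest value of 10.87, 11.23 and 11.63 in Wnt arrays. Those in Shh arrays were 11.10, 11.65 and 11.98, and those in hindbrain arrays 11.65, 11.69 and 11.79. Wnt arrays lay just under hindbrain arrays, with the highest at 11.63 and the lowest hindbrain array at 11.65, and overlapped Shh arrays. The fall was small, at -0.45 ± 0.11 against hindbrain (SE, adjusted p = 0.00198) and -0.39 ± 0.11 against Shh (adjusted p = 0.00919), and Shh against hindbrain gave -0.063 ± 0.11 (adjusted p = 0.703).

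Of the 2 cingulins, which link the strand to actin and its regulators, paracingulin (Cgnl1) fell and cingulin (Cgn) did not pass. Cgnl1 had 7.63, 8.15 and 8.99 as lowest, median and highest value in Wnt arrays. In Shh arrays it had 9.0, 9.42 and 10.18, and in hindbrain arrays 9.19, 9.60 and 9.86. No Wnt array reached the other groups, although Wnt replicate 3, at 8.99, was close to the lowest Shh array, and Shh overlapped hindbrain. The fall was -1.40 ± 0.17 against hindbrain (SE, adjusted p = 1.93e-07) and -1.31 ± 0.17 against Shh (adjusted p = 1.09e-06), with -0.092 ± 0.17 in Shh against hindbrain (adjusted p = 0.711). Cgn averaged 6.86 ± 0.17 in Wnt, 6.90 ± 0.21 in Shh and 6.83 ± 0.14 in hindbrain arrays (SD, n = 8 each), and its fold change in Wnt against hindbrain was 0.024 ± 0.090 (SE), with a 95% interval of -0.16 to 0.21. Magi3, a scaffold of the MAGI family, averaged 9.23 ± 0.30 in Wnt, 9.46 ± 0.29 in Shh and 9.29 ± 0.16 in hindbrain arrays (SD, n = 8 each). Its groups overlapped and none of its 3 fold changes passed, the largest being -0.23 ± 0.13 in Wnt against Shh (SE, adjusted p = 0.168).

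Counted together, 1 of the 10 genes rose, 6 fell and 3 did not pass in Wnt against hindbrain, where 45.3% of all genes were called, 23.2% higher and 22.0% lower. For Shh against hindbrain 0 rose, 3 fell and 7 did not pass, against 37.8% of all genes called, 18.9% in each direction. At an unadjusted p under 0.05 limma also gave 0 rises among the 10 in that comparison. Wnt against Shh gave 1 rise, 6 falls and 3 that did not pass, against 35.8% called, 18.0% higher and 17.8% lower. Groups did not overlap for 6 lower genes and 1 higher gene in Wnt against hindbrain, where 9.42% and 10.6% of all genes were so. It held in Shh against hindbrain for 1 lower gene, Ocln (5.55% of all genes), and for 0 higher ones (7.13%), and in Wnt against Shh for 4 lower and 1 higher (4.32% and 5.80%). The median log2 fold change of the 10 was -0.92 in Wnt against hindbrain, -0.078 in Shh against hindbrain and -0.85 in Wnt against Shh, beside -0.023, -0.020 and -0.0019 over all genes. Both comparisons with hindbrain use the same hindbrain arrays, so their values are not independent.

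**Figure D2:**
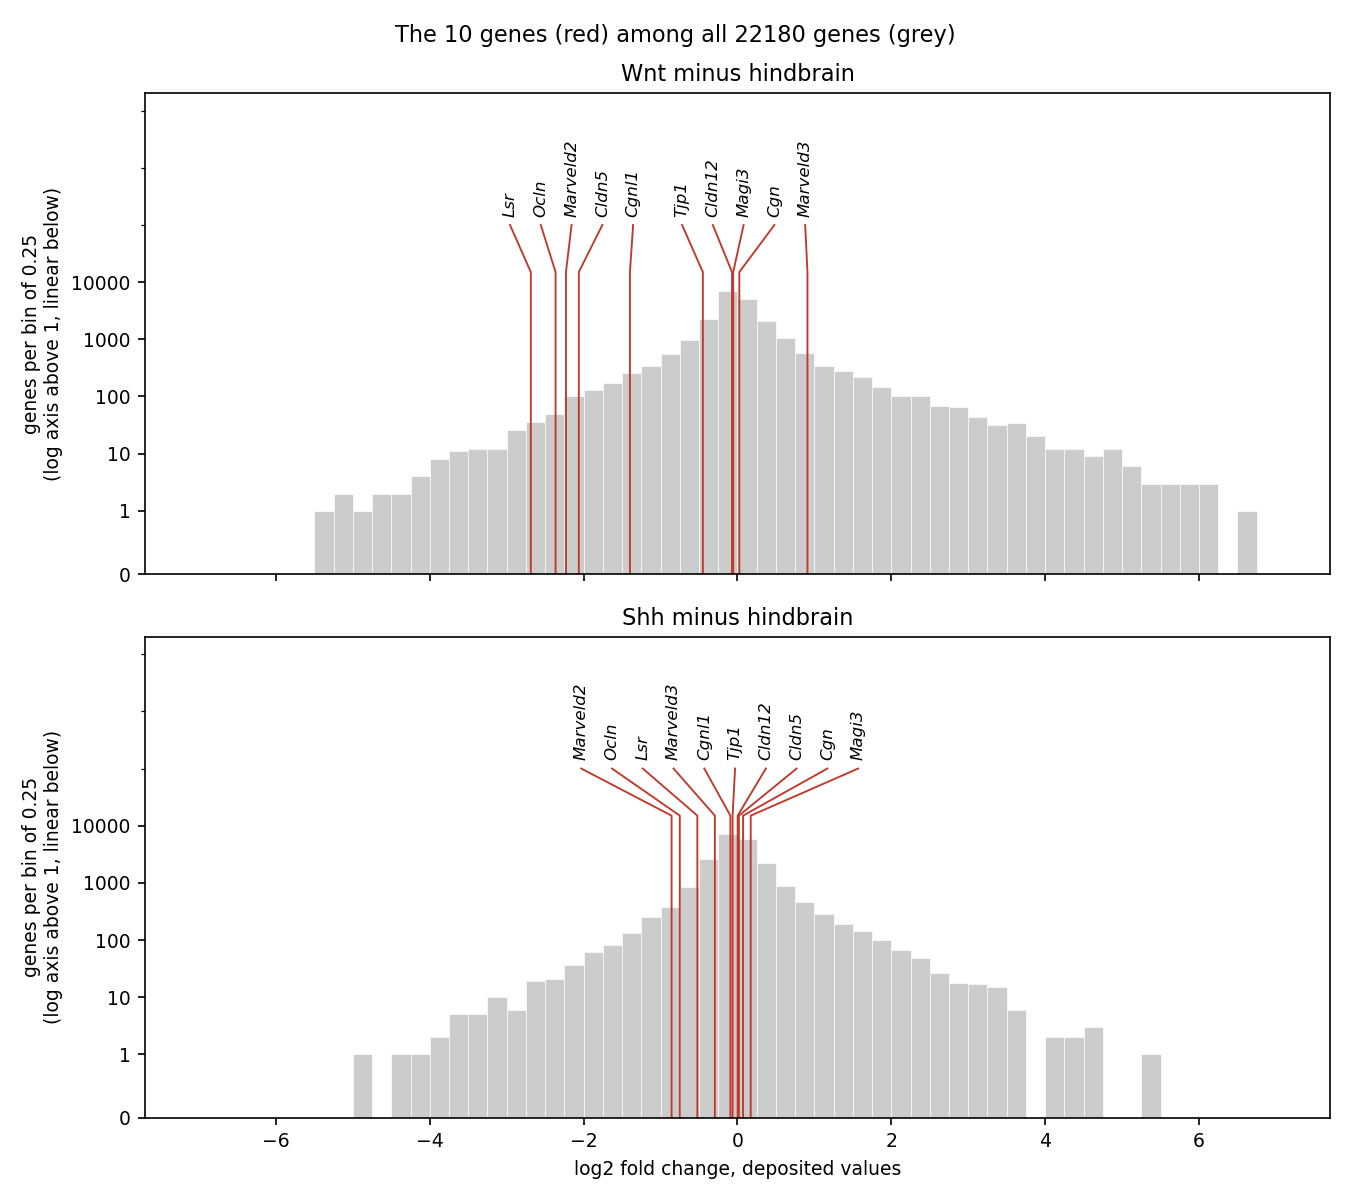
Log2 fold change against hindbrain of the 10 genes (red lines) within the histogram of all 22180 genes (grey bars, genes per bin on a log axis), for Wnt tumours above and Shh tumours below. In Wnt tumours Lsr, Ocln, Marveld2, Cldn5 and Cgnl1 stand in the left tail, from -2.69 to -1.40, and in Shh tumours Marveld2 and Ocln lie farthest left, at -0.86 and -0.75.

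Endothelial transcripts were lower in Wnt arrays as well. Cdh5, the cadherin of endothelial junctions, averaged 12.41 ± 0.35 in Wnt, 12.89 ± 0.14 in Shh and 12.82 ± 0.087 in hindbrain arrays (SD, n = 8 each), and Pecam1, another adhesion protein of endothelium, 10.33 ± 0.51, 11.10 ± 0.14 and 11.20 ± 0.11 in the same groups. Their mean on each array had a lowest, median and highest value of 10.69, 11.40 and 11.83 in Wnt arrays, of 11.81, 12.05 and 12.12 in Shh arrays and of 11.85, 12.01 and 12.18 in hindbrain arrays, so all Wnt arrays lay under all hindbrain arrays and Shh arrays overlapped both. The difference was -0.64 in Wnt against hindbrain (exact permutation test, two-sided, p = 0.000155, as small as the 12870 splits allow), -0.62 in Wnt against Shh (p = 0.000777 by the same exact test) and -0.018 in Shh against hindbrain (p = 0.759 by the same exact test). Wnt replicates 8 and 1 were lowest, at 10.69 and 10.94. Eng, whose product also chose the cells, fell by 0.74 ± 0.10 in Wnt against hindbrain (SE, adjusted p = 1.43e-06). In Wnt against hindbrain 15 of 16 endothelial markers fell and their median change was -0.85, and the 16 had a mean level of 10.03 to 11.26 in Wnt, 11.40 to 11.82 in Shh and 11.49 to 11.84 in hindbrain arrays. None of the 16 had a mean under the 95th percentile of the ERCC controls in all groups.

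The 10 genes were therefore also set against the mean of Cdh5 and Pecam1, which was subtracted from every gene on the same array. On that scale the median of all genes moved to 0.62 in both Wnt comparisons, so that 80.0% of all genes were called higher there, and a relative rise under that median is a smaller one than that of most genes. In Wnt against hindbrain 5 of the 10 fell, with 5.03% of all genes called lower, 4 rose, with 80.0% called higher and 85.1% called in all, and 1 did not pass. In Wnt against Shh 5 fell (3.17% of all genes), 3 rose (80.0%) and 2 did not pass, where 83.2% of all genes were called. Endothelial markers fell on this scale too: of 16, 8 fell and 3 rose in Wnt against hindbrain (median -0.21), and 9 fell and 2 rose in Wnt against Shh (median -0.32). The largest of these falls against hindbrain were those of Flt1 (-1.30 ± 0.14, SE) and Tek (-1.26 ± 0.15), receptors of endothelium named after their values were seen, and Cdh5 and Pecam1 are themselves among the 16. Whether the falls of the 10 genes differ from those of endothelial genes at large was not tested. In Shh against hindbrain 3 fell (8.33%), 0 rose (9.92%), also at an unadjusted p under 0.05 in limma, and 7 did not pass, where 18.3% were called. The median of the 10 was -0.28 in Wnt against hindbrain, -0.060 in Shh against hindbrain and -0.22 in Wnt against Shh.

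Relative to Cdh5 and Pecam1, the 4 genes with the largest falls in Wnt tumours were still lower, Lsr by its brighter probe set only. The second probe set of Lsr gave -0.15 in Wnt against hindbrain (adjusted p = 0.269). Lsr was at -3.53 ± 0.45 in Wnt, -1.99 ± 0.37 in Shh and -1.48 ± 0.14 in hindbrain arrays (SD, n = 8 each), a difference of -2.04 ± 0.17 between Wnt and hindbrain (SE, adjusted p = 4.13e-11). Ocln was at -2.27 ± 0.40, -1.28 ± 0.39 and -0.55 ± 0.093 in the same groups, which gave -1.72 ± 0.17 between Wnt and hindbrain (SE, adjusted p = 6.59e-10). Of all genes, 0.397% had a lower change than Lsr in that comparison and 0.640% a lower one than Ocln. The reference shifts all genes of an array alike, so these shares are the same on the deposited scale. Marveld2 gave -1.59 ± 0.20 (SE, adjusted p = 1.55e-07), Cldn5 -1.42 ± 0.16 (adjusted p = 8.15e-09) and Cgnl1 -0.76 ± 0.18 (adjusted p = 0.000663). For Lsr, Ocln, Marveld2 and Cldn5 the Wnt and hindbrain arrays did not overlap on this scale either, as for 1.54% of all genes, while those of Cgnl1 did. Higher in all Wnt arrays than in all hindbrain arrays were Marveld3 and Cgn, 2 of the 10, beside 25.0% of all genes. Against Shh arrays Lsr and Cldn5 were lower without overlap, 2 of the 10 beside 0.550% of all genes, and Marveld3 was higher, 1 of the 10 beside 16.8%. Without Wnt replicates 1 and 8 the same 5 genes fell against hindbrain.

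Marveld3 was higher relative to Cdh5 and Pecam1 by 1.55 ± 0.17 in Wnt against hindbrain (SE, adjusted p = 8.18e-09). On either scale 92.4% of all genes had a lower change. Cgn (0.67), Magi3 (0.59) and Cldn12 (0.57) passed the test too, at values close to the median of all genes, 0.62. The calls of Magi3 and Cldn12 were lost with Cdh5 alone as the reference, at 0.36 (adjusted p = 0.0653) and 0.34 (adjusted p = 0.0566). Tjp1, which fell on the deposited scale, had a relative change of 0.19 ± 0.17 (SE, adjusted p = 0.292), and 13.3% of all genes had a lower change on either scale. Its Wnt arrays spread from -0.96 to 0.69 on that scale, around the hindbrain range of -0.47 to -0.17, and the call of a fall therefore depends on the scale.

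**Figure D3:**
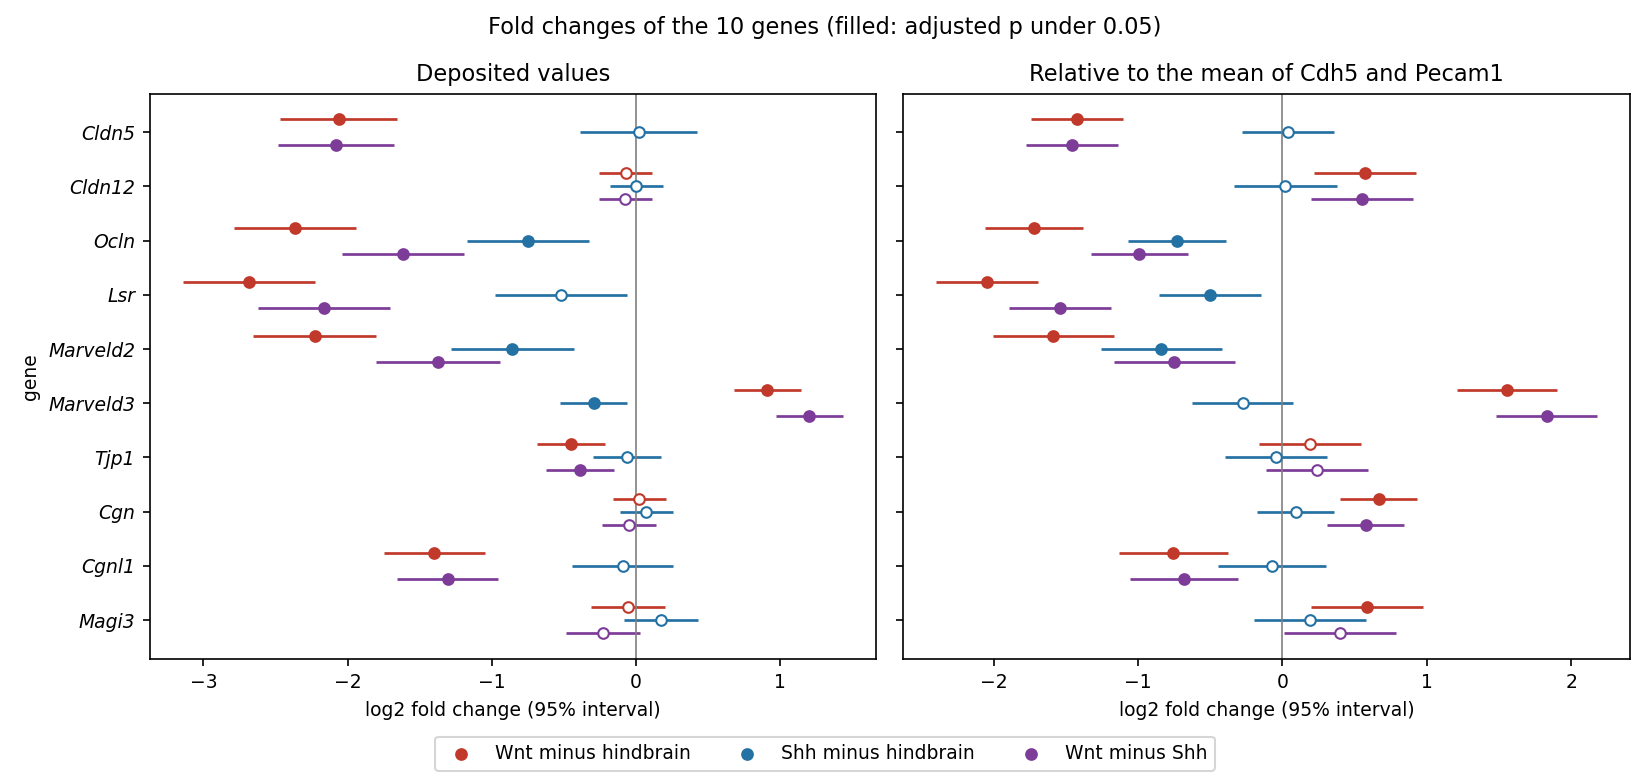
Log2 fold change of the 10 genes with its 95% interval, on the deposited scale (left) and relative to the mean of Cdh5 and Pecam1 (right), for Wnt and Shh tumours minus hindbrain and for Wnt minus Shh; filled points passed an adjusted p under 0.05. Lsr, Ocln, Marveld2, Cldn5 and Cgnl1 lie left of 0 in Wnt minus hindbrain on both scales, and the point of Tjp1 is at -0.45 on the left and at 0.19 on the right.

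Between Shh and hindbrain the reference differed by -0.018, and the relative changes stayed near the deposited ones. Marveld2 fell by 0.84 ± 0.20 (SE, adjusted p = 0.00317), Ocln by 0.73 ± 0.17 (adjusted p = 0.00154) and Lsr by 0.50 ± 0.17 (adjusted p = 0.0382). Shh and hindbrain arrays did not overlap for 1 lower gene, Ocln (4.30% of all genes), and for 0 higher ones (6.08%). The call of Lsr was lost relative to Pecam1 alone (-0.42, adjusted p = 0.127) and when any 1 of 10 arrays was left out, namely hindbrain replicates 1, 3, 4, 5, 7 and 8 and Shh replicates 2, 4, 7 and 8, with values of -0.51 to -0.39. Marveld3, with -0.28 ± 0.17 (adjusted p = 0.318), did not pass on this scale. Between the tumours, Wnt against Shh gave relative falls of -1.54 for Lsr, -1.46 for Cldn5, -0.99 for Ocln, -0.75 for Marveld2 and -0.68 for Cgnl1, and a rise of 1.83 for Marveld3, while Cgn (0.58) and Cldn12 (0.55) passed as rises under the median of all genes, 0.62. The second probe set of Lsr did not follow on the relative scale: it gave -0.15 in Wnt against hindbrain (adjusted p = 0.269) and 0.30 in Wnt against Shh (adjusted p = 0.0381).

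The arrays with the lowest levels were not the same for all members. Wnt replicate 1 was the lowest Wnt array for 6 of the 10 genes, and Wnt replicate 6 for 3. Wnt replicates 6, 4 and 5 had a Cdh5 and Pecam1 mean of 11.83, 11.81 and 11.73, next to the lowest hindbrain array at 11.85, a choice made after the values were seen. In those arrays Cldn5 was at 9.47, 10.95 and 10.41, against 11.69 in the lowest hindbrain array. Lsr was at 7.50, 8.88 and 8.49 there, against 10.24 in the lowest hindbrain array, and Ocln at 9.33, 10.08 and 9.26, against 11.40. Other endothelial measures were lower there too: Eng was at 12.26, 12.45 and 12.48 in those arrays, against 12.70 in the lowest hindbrain array, and the mean of the 16 endothelial markers was at most 11.26 in any Wnt array, against 11.49 in the lowest hindbrain array. The sizes of these differences varied between genes, and whether fewer endothelial cells or less RNA per cell goes with them was not tested. In the Shh group replicate 2 was lowest for 7 of the 10, among them Ocln at 9.83, Lsr at 9.16 and Tjp1 at 11.10. Without that array and Wnt replicates 1 and 8, an exclusion added after the values were seen, Ocln and Marveld2 fell in Shh against hindbrain and Marveld3 did not pass (-0.29, adjusted p = 0.0535).

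Within a group, the 10 genes were set against the mean of Cdh5 and Pecam1 in 30 relations, of which 2 passed an adjusted p under 0.05 by Pearson's r and 0 by Spearman's rho. Cldn5 had r = 0.91 and rho = 0.83 over the 8 Shh arrays (exact permutation p = 0.00246 for r, adjusted 0.0450, and p = 0.0154 for rho, adjusted 0.109). In Wnt arrays it had r = 0.67 and rho = 0.60 (exact permutation p = 0.0768, adjusted 0.165, and p = 0.132, adjusted 0.233), and in hindbrain arrays r = 0.83 and rho = 0.81 (exact permutation p = 0.00913, adjusted 0.0685, and p = 0.0218, adjusted 0.109). Cgnl1 had r = 0.92 and rho = 0.81 in hindbrain arrays (exact permutation p = 0.00300 for r, adjusted 0.0450, and p = 0.0218 for rho, adjusted 0.109). Without the 2 arrays farthest from the median of the reference, r was 0.87 for Cldn5 in Shh arrays and 0.67 for Cgnl1 in hindbrain arrays, where it was 0.92 with all 8. In Shh arrays r without 2 arrays was 0.99 for Ocln, 0.98 for Lsr and 0.98 for Tjp1, against 0.67, 0.66 and 0.75 with all 8. These were the highest of the 30 relations, named after their values were seen. Shh replicate 2, the lowest Shh array for each of these genes, was among the 6 kept. Its reference, 11.92, was the lowest of the 6, so these values of r lean on that array. The exact p cannot go below 0.00278 over 6 arrays, which a lone relation of 30 turns into an adjusted 0.0833, so the threshold says little there.

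**Figure D4:**
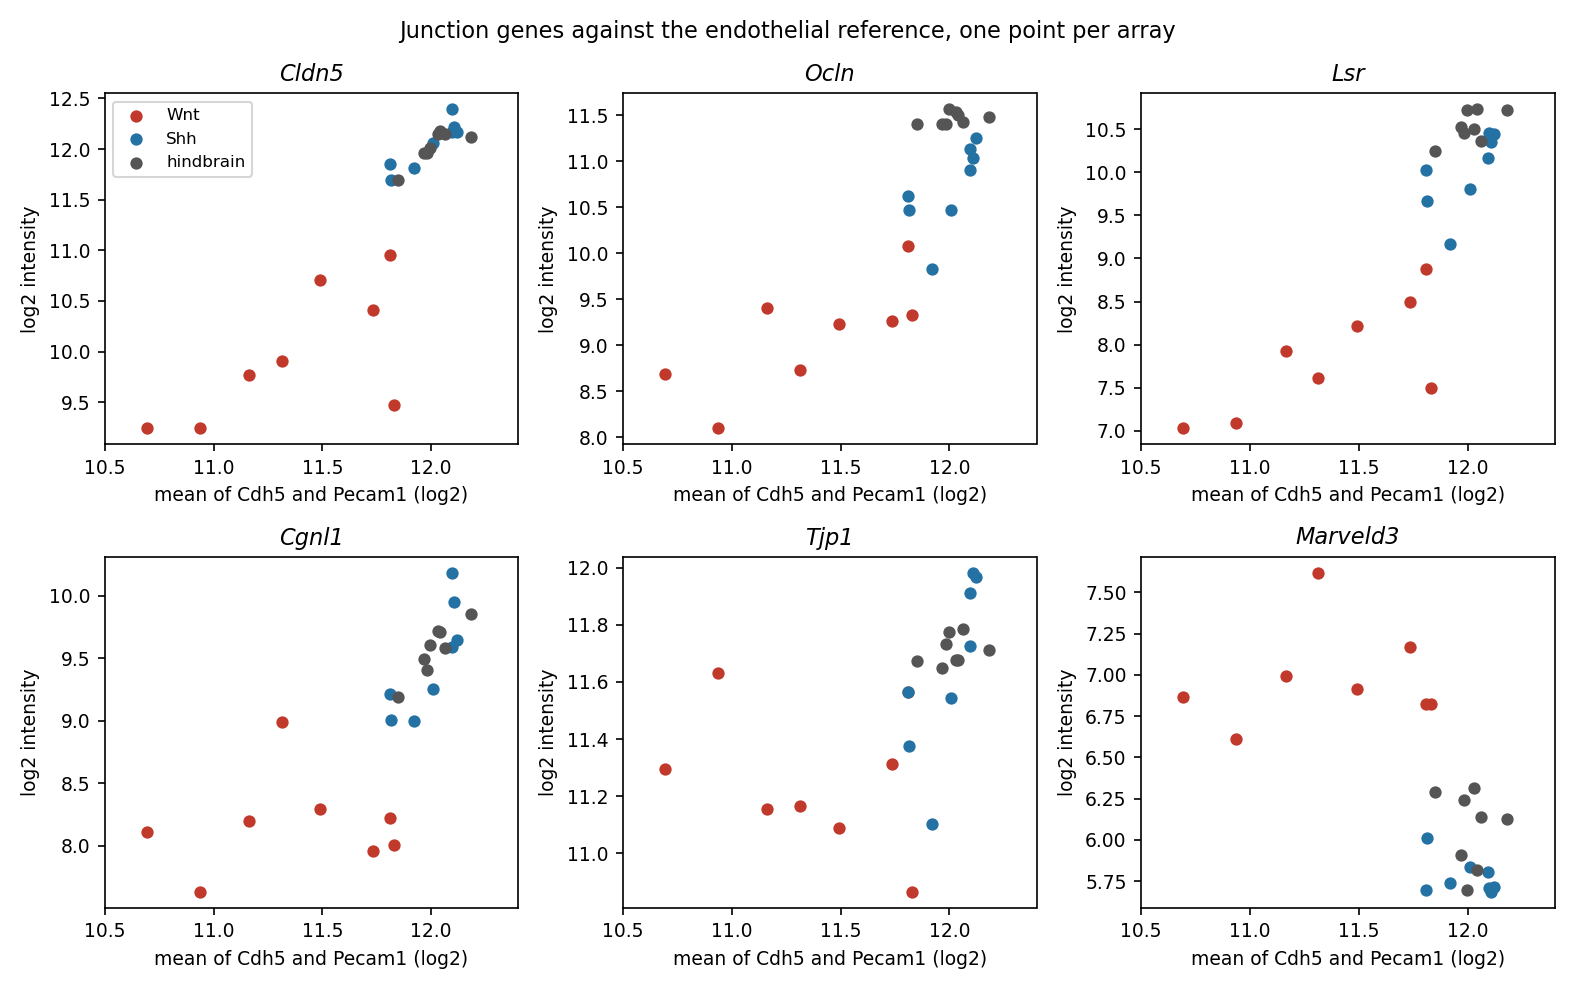
Deposited log2 level of 6 of the genes (vertical axis) against the mean of Cdh5 and Pecam1 on the same array (horizontal axis, log2), 1 point an array, coloured by group. The Wnt points of Cldn5, Ocln and Lsr all lie below the hindbrain points, and the reference reaches 11.83 in Wnt arrays and starts at 11.85 in hindbrain arrays.

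The genes whose levels were most like those of Cldn5, Ocln and Lsr were ranked by Pearson's r over the 24 arrays, which share the difference between groups, and over the residuals from the group means, which do not. For Cldn5 the first over the arrays was Slc38a3 (0.98), followed by Foxc1, Pglyrp1, Lbr and Vwa1, and over residuals Foxc1 (0.92), followed by Dlc1, Ece1, Fermt2 and Ptprm. For Ocln the arrays gave Shroom1 (0.98), Lsr, Slfn5, Dnm3 and Hspa12b, and residuals Fry (0.89), Mrtfb, Lsr (0.88), Crim1 and Ano6. Lsr was nearest to Maoa over the arrays (0.99), then Shroom1, Nos3, Fry and Dnm3, and over residuals to Dnm3 (0.94), Slc52a3, Abcb1a (0.91), Shroom1 and Shroom4. So Lsr was among the 5 genes nearest to Ocln on both measures, while Cldn5 was among neither list of the 5 nearest to Ocln or Lsr.

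Other genes of the junction were followed by lists. Of 21 other claudins, 2 rose, 2 fell and 17 did not pass in Wnt against hindbrain, and their median was -0.051. Cldn1 (1.33 ± 0.43, SE, adjusted p = 0.0143) and Cldn11 (1.10 ± 0.32, adjusted p = 0.00611), the claudin of myelin and of barrier layers of the meninges, rose, and Cldn9 (-0.57 ± 0.13) and Cldn6 (-0.41 ± 0.11) fell. Against hindbrain, Shh arrays gave 1 rise, Cldn11 (0.86 ± 0.32), 5 falls, Cldn9 (-0.52 ± 0.13) and Cldn7 (-0.34 ± 0.13) the largest, and 15 that did not pass. Of these 21, 7 had means under the 95th percentile of the ERCC controls in every group, Cldn7 among them, and Cldn11 is also in the oligodendrocyte list. Wnt against Shh gave 2 rises, Cldn4 (0.36 ± 0.11) and Cldn3 (0.32 ± 0.097), 1 fall, Cldn15 (-0.26 ± 0.087), and 18 that did not pass. None of the other claudins had a fall as large as that of Cldn5. Their mean level in hindbrain arrays was 5.59, against 12.03 for Cldn5, so most had little room for such a fall. Relative to Cdh5 and Pecam1, 18 rose, 0 fell and 3 did not pass in Wnt against hindbrain, where 80.0% of all genes were called higher. Cldn9 (0.073) and Cldn6 (0.23) did not pass on that scale.

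Other plaque and membrane proteins of the tight junction were listed as 19 genes, 17 of them measured, of which 7 were higher, 6 lower and 4 not past the test in Wnt against hindbrain, and their median was 0.21. Ildr2, the angulin related to Lsr, averaged 10.54 ± 0.41 in Wnt, 9.37 ± 0.52 in Shh and 8.59 ± 0.29 in hindbrain arrays (SD, n = 8 each). It rose by 1.95 ± 0.20 in Wnt (SE, adjusted p = 9.10e-09) and by 0.78 ± 0.20 in Shh against hindbrain (adjusted p = 0.00263), opposite to the fall of Lsr in Wnt arrays. Another angulin, Ildr1, gave -0.62 ± 0.15 in Wnt (adjusted p = 0.00145) and -0.74 ± 0.15 in Shh arrays (adjusted p = 0.000393). Magi1, a scaffold related to Magi3, rose by 1.31 ± 0.12 in Wnt against hindbrain and by 0.69 ± 0.12 in Shh against hindbrain. F11r, which encodes the adhesion protein JAM-A, gave -1.29 ± 0.11 and Jam2, of the same family, -1.19 ± 0.12 in Wnt against hindbrain. In Shh against hindbrain 5 rose, 5 fell and 7 did not pass, Amot (-0.89 ± 0.12) and Ildr1 falling by most. Wnt against Shh gave 7, 5 and 5, with Ildr2 (1.16 ± 0.20) and Jam3 (0.93 ± 0.16) rising by most. F11r (-1.17 ± 0.11) and Arhgef2 (-0.59 ± 0.068) fell by most there. Relative to Cdh5 and Pecam1, 11 rose and 3 fell in Wnt against hindbrain, beside 80.0% and 5.03% of all genes. F11r (-0.65) and Jam2 (-0.55) were among those falls, while Ildr1 did not pass (0.022, adjusted p = 0.915). In Wnt against Shh 13 rose and 1, F11r, fell on that scale, and Arhgef2 did not pass (0.031, adjusted p = 0.843).

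Among 12 genes of the adherens junction Wnt against hindbrain gave 5 rises, 5 falls and 2 that did not pass. Nectin3 (2.05 ± 0.14, SE) and Nectin2 (1.47 ± 0.14), adhesion proteins of the nectin family, rose, and the phosphatase Ptprb (-1.54 ± 0.16) and Pecam1 (-0.87 ± 0.15) fell. Shh against hindbrain had 4 that rose, 1 that fell and 7 that did not pass, with N-cadherin, Cdh2 (2.26 ± 0.14), and Nectin2 (1.08 ± 0.14) rising and plakoglobin, Jup (-0.38 ± 0.092), falling. Wnt against Shh gave 3 rises, Nectin3 (1.01 ± 0.14) and Ctnnal1 (0.79 ± 0.16) the largest, 4 falls, Ptprb (-1.26 ± 0.16) and Cdh2 (-0.97 ± 0.14) the largest, and 5 that did not pass. Cdh2 is found on pericytes and neural cells as well as endothelium. Relative to Cdh5 and Pecam1, 9 of the 12 rose in Wnt against hindbrain, where 80.0% of all genes were called higher. On that scale 2 fell, Ptprb (-0.90) and Pecam1 (-0.23), the latter a part of the reference.

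Markers of other cells were present and moved between the groups. Of 7 fibroblast markers 6 rose and 1 did not pass in Wnt against hindbrain, and 6 rose and 1, Ogn, fell (-1.65 ± 0.32, SE) in Shh against hindbrain, with a mean level of 9.19 to 10.77 in Wnt, 9.19 to 10.40 in Shh and 7.91 to 8.70 in hindbrain arrays, and the brightest, Dcn and Islr, rose by 2.03 and 2.42 in Wnt arrays. All 8 microglial markers fell in both tumours, with a mean level of 7.65 to 9.41 in Wnt, 7.61 to 10.09 in Shh and 10.40 to 11.39 in hindbrain arrays, the brightest being C1qb and Csf1r (-1.46 and -2.32 in Wnt arrays). Of 7 pericyte markers 4 fell and 3 did not pass in Wnt against hindbrain, at 8.66 to 10.81 in Wnt, 10.95 to 11.45 in Shh and 10.56 to 11.62 in hindbrain arrays, the brightest being Rgs5 (-0.34) and Vtn (-2.52). Of 5 measured choroid plexus markers (6 listed) 2 rose in Wnt against hindbrain, Otx2 by 4.93 and Clic6 by 3.68, and 2 fell, Ttr (-3.20) and Kl (-2.02), the last 2 named after their values were seen. Their mean level was 7.89 to 8.34 in Wnt, 5.79 to 8.29 in Shh and 6.23 to 9.72 in hindbrain arrays.

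Of 7 measured oligodendrocyte markers (8 listed) 1 rose, Cldn11, and 5 fell in Wnt against hindbrain, and 1 rose and 6 fell in Shh against hindbrain, with a mean level of 6.22 to 6.50 in Wnt, 6.16 to 6.85 in Shh and 7.14 to 7.99 in hindbrain arrays. Astrocyte markers had a mean level of 7.50 to 8.23 in Wnt, 7.59 to 9.02 in Shh and 7.28 to 8.01 in hindbrain arrays. Of 7, 2 rose, 1 fell and 4 did not pass in Wnt against hindbrain (median 0.019). In Shh against hindbrain 5 rose and 2 did not pass (median 0.94). Gja1 rose in both (1.74 and 0.94) and does not stand for the list in Wnt arrays. Neuron and granule precursor markers were at 6.50 to 7.44 in Wnt, 7.59 to 9.27 in Shh and 6.95 to 7.55 in hindbrain arrays. Of 9, 1 rose, 2 fell and 6 did not pass in Wnt against hindbrain (median -0.20). In Shh against hindbrain 6 rose and 3 did not pass (median 0.99). The brightest of them, Zic2, fell by 2.33 in Wnt arrays, and Zic1, the next, rose by 1.31 in Shh arrays. Each is given here in a different comparison, so they do not stand for the list. The part of these cells in the levels of the tight junction genes was not tested.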

How the data were processed

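RNA of sorted mouse cells was measured on 24 Affymetrix arrays, 8 a group. The deposited table holds log2 intensities per probe set, read as log2 from their range, while no source used here states how the authors summarised, background-corrected or normalized them. Partek 6.6 is named, without a role, in the submitters' processing notes. Array medians were 5.97 to 6.18, the lowest and highest in Wnt replicates 8 and 4. The main fit used the deposited values unchanged, and equal medians were tried as an alternative. Of 41345 probe sets, 23521 carry 1 gene symbol in the platform annotation, 1814 several and 15820 none; 190 control probe sets were left out of the fit. The ERCC control probe sets, 92 of them, had a 95th percentile of 5.24, used as a mark of dim signal.

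The probe set with the highest mean stood for each of 22180 genes. All genes and arrays entered 1 fit of limma 3.58.1 (R 4.3.3) with group as the only factor, 21 residual degrees of freedom and Benjamini-Hochberg adjustment over all genes, on deposited values and again after subtracting the mean of Cdh5 and Pecam1 on each array. A relation with that mean was tested by exact permutation within a group (Python 3.11.15, scipy 1.17.1), and plots were drawn with matplotlib 3.10.9. The fit was tested on simulated data. P-values measure the spread between arrays labelled biological replicates, and whether animals were pooled is not stated.

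The members and lists were chosen with earlier results of these data known. Named besides the 10 members are Cdh5, Pecam1 and Eng, the 2 largest called rises and falls of each junction list, and the 5 genes most like Cldn5, Ocln and Lsr. The 2 brightest markers were planned for each cell type list, but this was not kept throughout. Only Cldn11 and Gja1 are named of the oligodendrocyte and astrocyte lists, and some other markers were named after their values were seen. Promoters come from RefSeq (GRCm38.p6). Alternatives were quantile normalization, equal array medians, array weights, other probe set rules, other references, fits of 2 groups, a replicate block and leaving out arrays.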

Additional observations from a re-analysis of the deposited data

Results flagged for a closer look

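Single arrays stood apart from their group in 3 of 60 groups of 8 values (10 genes, 3 groups, 2 scales). All 3 were among the 30 groups of the deposited scale. Chance gives about 1 in 20 groups, but the 2 scales share their values, so the 60 groups are not independent. Cldn5 in hindbrain replicate 6 was at 11.69, with the next lowest hindbrain array at 11.96. Marveld3 in Shh replicate 7 was at 6.01, with the next highest Shh array at 5.83. Magi3 in hindbrain replicate 8 was at 9.66, with the next highest hindbrain array at 9.33.

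The change against hindbrain differed between Wnt and Shh tumours for 7 of the 10 genes by the limma test of the difference itself, where 35.8% of all genes were called. This is the comparison of Wnt with Shh arrays, since the shared hindbrain arrays cancel. The difference was -2.17 for Lsr, -2.08 for Cldn5, -1.61 for Ocln, -1.37 for Marveld2, -1.31 for Cgnl1 and -0.39 for Tjp1, with adjusted p-values of 6.73e-09 (Cldn5) to 0.00919 (Tjp1), and 1.20 for Marveld3 (adjusted p = 6.19e-09). Every Wnt array was below every Shh array for Lsr, Cldn5, Marveld2 and Cgnl1, and above for Marveld3, while Ocln and Tjp1 overlapped.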

How the results depend on the processing

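Leaving out 1 array left 7 called members in Wnt against hindbrain and in Wnt against Shh in every case, 2 to 4 in Shh against hindbrain (3 with all arrays), and, relative to Cdh5 and Pecam1, 9, 8 to 10, and 2 to 3; the relative rises in Wnt against Shh ran from 3 to 5, the 5 without Wnt replicate 6, where Tjp1 (0.36) and Magi3 (0.54) passed. Relative rises numbered 2 in place of 4 in Wnt against hindbrain with Cdh5 alone, and 5 in place of 3 in Wnt against Shh with the mean of 16 endothelial markers, and 0 of 30 relations passed without 2 arrays in place of 2, where 6 arrays allow a p of 0.00278 at the smallest. The other causes were not tested. Falls of Lsr, Ocln, Marveld2, Cldn5 and Cgnl1 and the rise of Marveld3 in Wnt against hindbrain passed under all alternatives and on both scales, except the relative fall of Lsr with its second probe set (-0.15), which gave 0.30 in Wnt against Shh.

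Calls near the threshold changed. Marveld3 in Shh against hindbrain was not called with quantile normalization (-0.29, adjusted p = 0.0518), and Lsr there was called with array weights (-0.53, adjusted p = 0.0223), with the mean of its probe sets (-0.50, adjusted p = 0.00518) and without Wnt replicates 1 and 8 (adjusted p = 0.0316). On the relative scale Lsr there was not called with the 16 markers (-0.44, adjusted p = 0.0517), nor without Shh replicate 2 and Wnt replicates 1 and 8 (-0.39, adjusted p = 0.0658), an exclusion chosen after seeing the data; the same exclusion took the relative call of Cldn12 in Wnt against Shh (0.30, adjusted p = 0.0725). On the relative scale Magi3 in Wnt against hindbrain was not called without Wnt replicates 1 and 8 (0.36, adjusted p = 0.0572). Tjp1 was called higher there relative to Pecam1 alone (0.42) and to the 16 markers (0.48), and Magi3 in Wnt against Shh with array weights (0.40), Pecam1 alone (0.54), the 16 markers (0.62) and without Shh replicate 5 (0.44), Wnt replicate 4 (0.48) or 5 (0.47).

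Values that passed no test changed sign as follows. Quantile normalization gave -0.099 for Cgn in Wnt against hindbrain and, in Shh against hindbrain, -0.084 for Cldn12, 0.0037 for Tjp1 and -0.025 for Cgn, with -0.11 for Cldn12 and -0.052 for Cgn on the relative scale. Equal medians gave 0.0080 for Magi3 in Wnt against hindbrain and 0.015 for Cgn in Wnt against Shh. Without Wnt replicates 1 and 8 Cgn had 0.016 in Wnt against Shh, and Tjp1 relative values of -0.061 in Wnt against hindbrain and -0.015 in Wnt against Shh. With Shh replicate 2 left out too, Tjp1 had 0.014 in Shh against hindbrain and relative values of -0.061, 0.021 and -0.082 in Wnt against hindbrain, Shh against hindbrain and Wnt against Shh. Relative to Cdh5 alone, Tjp1 had -0.039 in Wnt against hindbrain, and Cldn5 -0.051 and Cldn12 -0.067 in Shh against hindbrain, where Pecam1 alone gave 0.042 for Tjp1 and 0.013 for Cgnl1 and the 16 markers 0.020 for Tjp1. Leaving out 1 array gave -0.013 to 0.060 for Cgn and -0.12 to 0.025 for Magi3 in Wnt against hindbrain, and in Shh against hindbrain -0.031 to 0.068 for Cldn5, -0.029 to 0.036 for Cldn12 and -0.11 to 0.014 for Tjp1, with relative values of -0.014 to 0.066 for Cldn12 and -0.077 to 0.021 for Tjp1. Without 2 arrays r with the reference was -0.49 for Marveld3, 0.17 for Tjp1 and -0.55 for Cgnl1 in Wnt arrays, and -0.13 for Lsr, 0.20 for Marveld3, 0.33 for Cgn and -0.20 for Magi3 in hindbrain arrays.

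Equal medians moved the share of called genes that were higher to 59.9% in Wnt against hindbrain and 62.2% in Wnt against Shh, against 51.3% and 50.3% with the deposited scale. In Shh against hindbrain the relative share was 54.4%, and 40.7% with Cdh5 alone, 66.9% with Pecam1 alone and 63.7% with the 16 markers. Genes called there numbered 4048, 8669 with array weights and 7437 with the 2 groups alone. Equal replicate numbers did not pair the arrays (r of deviations -0.15 to 0.28), and a replicate block changed only the call of Marveld3 in Shh against hindbrain (-0.29, adjusted p = 0.0627).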
